A study of Danio rerio with 18 samples.

Results

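The genes described here are 8 zebrafish genes of the interferon response and of antigen presentation: b2m, cd74a, cd74b, irf1b, irf7, irf8, isg15 and mxa. They are given as a list of symbols, and all 8 were found among the 15268 genes of the expression table. RNA was sequenced from newly regenerated heart tissue of zebrafish of the TAB line, a hybrid of the AB and Tubingen lines, taken 0, 6 or 9 days after amputation (days post amputation, dpa), with 2 replicates at each time point. The groups shared the line and the tissue and differed, as labelled, only in the time after amputation. The labels give neither the age of the fish, nor the number of hearts in a library, nor whether replicates came from separate fish. The study calls them biological replicates. The p-values below thus set differences against the spread between these libraries, which may not be the spread between fish. The cell type label reads regenerative cardiac cells, but no sort is described, and each library is bulk tissue.

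Interferons are secreted signals that cells release after infection or injury. They act through receptors, JAK kinases and STAT transcription factors, and interferon regulatory factors (IRFs) add to the same target genes. Among these targets are antiviral effectors and the machinery that shows peptides to T cells, MHC class I in nearly all nucleated cells and MHC class II in macrophages, dendritic cells and B cells. In the injured zebrafish heart, macrophages and other leukocytes are known to enter the wound.

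Expression is given as FPKM, the number of sequenced fragments scaled by transcript length and by library size, so that levels of different genes can be compared. FPKM carries no read counts, so error could be judged only from differences between replicates, over all genes. The summed FPKM of the libraries lay between 803421 and 1330110, and the 14 cardiomyocyte markers in the table summed to between 44329 and 104179 FPKM in every library, against 411 to 714 FPKM for the 14 endothelial markers. The libraries of 0 dpa stood apart from each other. Of the 9363 genes that entered the fit, 13.9% differed between the 0 dpa replicates by more than 1 on the log2(FPKM + 1) scale, against 5.66% between the 6 dpa and 3.81% between the 9 dpa replicates. At 6 dpa, 14 fitted epidermal markers had a median of 2.49 log2 higher in replicate 2 than in replicate 1.

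The antigen presentation genes were by far the most abundant of the 8. b2m encodes beta-2-microglobulin, the light chain of MHC class I. It had 1565 and 2784 FPKM at 0 dpa, 1697 and 2015 FPKM at 6 dpa, and 1300 and 1511 FPKM at 9 dpa. Its mean over the 6 libraries ranked at number 120 of all 15268 genes, and both libraries of 9 dpa lay below every other one. cd74a and cd74b encode the invariant chain, the chaperone that guides MHC class II to the compartment where it takes up peptide. cd74a had 586 and 2662 FPKM at 0 dpa, 1632 and 1517 FPKM at 6 dpa, and 785 and 1045 FPKM at 9 dpa. cd74b had 196 and 962 FPKM at 0 dpa, 589 and 592 FPKM at 6 dpa, and 328 and 346 FPKM at 9 dpa. For both, replicate 2 of 0 dpa was the highest of all libraries and replicate 1 of 0 dpa the lowest, with the libraries of 6 and 9 dpa in between. The ratio of cd74a to cd74b stayed between 2.40 and 3.02 in the 6 libraries, a 1.26-fold range, while each gene alone ranged over 4.54-fold and 4.90-fold. Whether reads were shared between the paralogues could not be examined from FPKM.

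The transcription factors were expressed at a lower level and did not share a single pattern. irf8 is required for macrophage formation in zebrafish and is a factor of myeloid and B cells in vertebrates. It had 9.38 and 128 FPKM at 0 dpa, 50.6 and 40.1 FPKM at 6 dpa, and 24.3 and 26.2 FPKM at 9 dpa. The 13.7-fold difference between the 0 dpa replicates was the widest of the 8 genes. irf1b is one of the zebrafish copies of IRF1, a factor that is induced by interferon-gamma in mammals and acts on MHC class I genes. It had 9.83 and 93.0 FPKM at 0 dpa, 43.4 and 52.3 FPKM at 6 dpa, and 22.9 and 35.1 FPKM at 9 dpa. As with irf8, the extremes were the 2 libraries of 0 dpa, 9.47-fold apart. irf7 is the factor that amplifies type I interferon expression. It had 6.52 and 9.33 FPKM at 0 dpa, 15.2 and 9.51 FPKM at 6 dpa, and 5.17 and 11.2 FPKM at 9 dpa, and its 9 dpa libraries spanned both libraries of 0 dpa.

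The effectors, and irf7 with them, were highest in replicate 1 of 6 dpa. isg15 encodes a ubiquitin-like protein that is attached to other proteins during the interferon response. It had 38.6 and 30.5 FPKM at 0 dpa, 109.8 and 47.0 FPKM at 6 dpa, and 88.6 and 47.0 FPKM at 9 dpa. All 4 libraries of 6 and 9 dpa were above both libraries of 0 dpa, with replicate 1 the higher at each time point. mxa encodes an antiviral GTPase of the Mx family. It had 2.04 and 4.21 FPKM at 0 dpa, 7.20 and 2.199 FPKM at 6 dpa, and 2.61 and 2.68 FPKM at 9 dpa. It was the least abundant of the 8 genes, at rank 8435, and only its mean at 0 and at 6 dpa reached the minimum of 3 FPKM. mxa lies next to mxb in the RefSeq annotation, and a sharing of reads within the Mx family could not be examined.

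**Figure D1:**
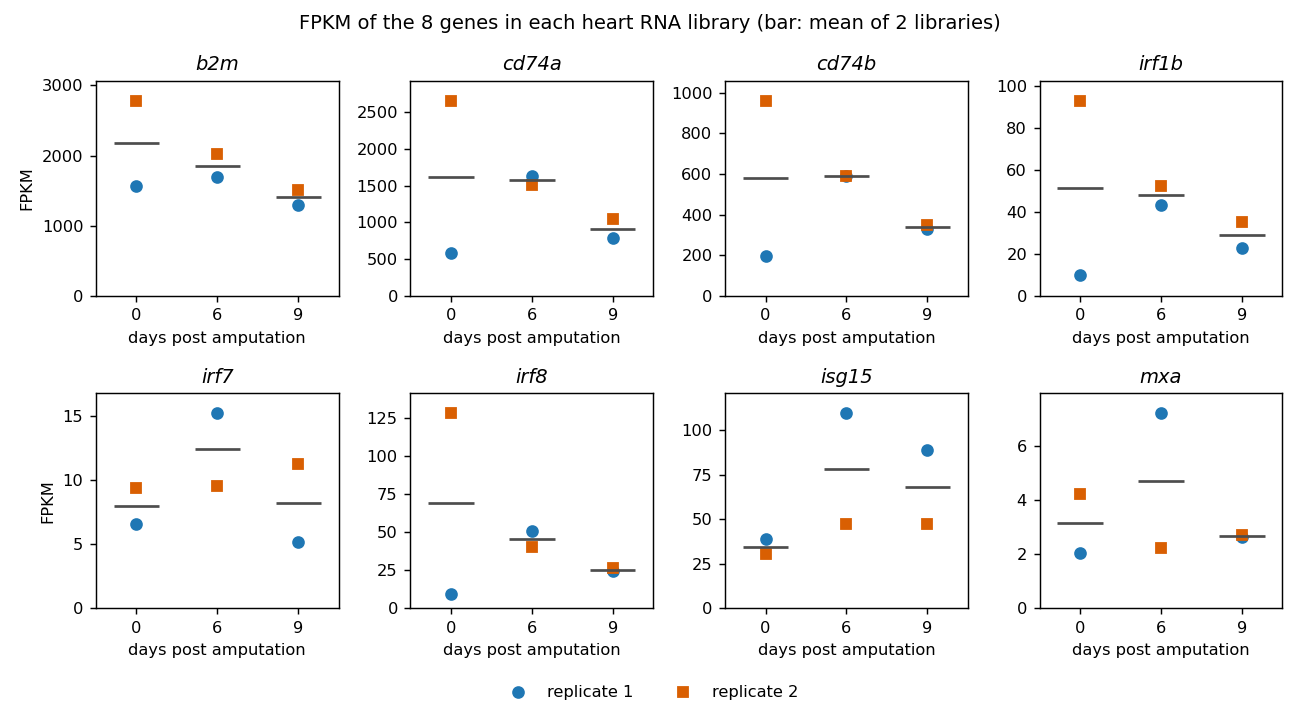
FPKM (y axis, linear, a scale of its own for each gene) of the 8 genes in each library by days post amputation (x axis); circles are replicate 1, squares replicate 2 and bars the mean of the 2 libraries. irf8, irf1b, cd74a and cd74b have their highest and lowest values in the 2 libraries of 0 dpa, and the 4 later libraries of isg15 lie above both libraries of 0 dpa.

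The 3 comparisons of the design ask which genes changed between the start and the later stages of regeneration. The 3 criteria of the study decided a call: P below 0.05 without adjustment, 1.5-fold or more in either direction, and a group mean of 3 FPKM or more in one of the groups compared. P values came from limma, a linear model fitted to log2(FPKM + 1). It gives each gene its own spread, common to the time points and drawn toward that of genes at a similar level. At 6 dpa against 0 dpa, 0 of the 8 genes were called by limma as higher, against 7.86% of the 9275 genes tested, and 0 as lower, against 7.51%. None was under a P value of 0.05, and none passed the adjusted p-value, which 0.712% of all genes did. isg15 had the lowest P value, with 78.4 ± 44.4 FPKM at 6 dpa and 34.6 ± 5.76 FPKM at 0 dpa (SD, n = 2 each), a log2 fold change of 1.05 ± 0.47 (SE) with a limma P value of 0.0577 and an adjusted p of 0.338. irf7 had a log2 fold change of 0.57 ± 0.39 (SE). isg15 and irf7 were the members whose libraries of 6 dpa all lay above those of 0 dpa, 2 of 8 against 22.9% of all genes. For the opposite order the count was 0 of 8, against 22.8% of all genes.

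The other 6 genes had overlapping libraries at 6 and 0 dpa. Their log2 fold changes lay between -0.17 for b2m and 0.61 for irf1b, and the intervals were wide: -1.91 to 2.57 for irf8, -1.37 to 2.58 for irf1b and -1.12 to 1.79 for cd74a (95%). A change of more than 2-fold in either direction was thus within the interval for irf8, irf1b and cd74a. The same held for cd74b, at -1.06 to 1.94. The interval of b2m, -0.98 to 0.63, held no such change, and that of mxa, -0.81 to 1.54, only an increase. In all, 7 of the 8 genes had a log2 fold change above 0 (b2m as well, and so 8 of 8, with scaling without haemoglobin), against 49.8% of all genes, and their median was 0.40, against -0.003 for all genes. This direction depended on averaging logs: by the ratio of mean FPKM 4 of 8 genes were higher at 6 dpa, and irf8, irf1b and cd74a, with log2 fold changes above 0, had ratios of 0.658, 0.931 and 0.969. This median was not stable, because it was -0.65 without replicate 1 and 1.15 without replicate 2 of 0 dpa. Marker lists leaned as well. Above 0 were 21 of 25 macrophage and neutrophil markers (median 0.33), 12 of 14 epidermal markers (1.25) and 4 of 9 B and T cell markers (-0.02). Of cardiomyocyte markers 1 of 13 was above 0 (-0.58), and of endothelial markers 3 of 14 (-0.54). Their part in the result was not tested.

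At 9 dpa against 0 dpa, 0 of the 8 genes were called as higher by limma, against 6.82% of the 9015 genes tested, and 0 as lower, against 5.72%. None was under a P value of 0.05 and none passed the adjusted p-value, against 0.366% of all genes. isg15 had 67.8 ± 29.4 FPKM at 9 dpa and 34.6 ± 5.76 FPKM at 0 dpa (SD, n = 2 each), a log2 fold change of 0.89 ± 0.47 (SE) with a limma P value of 0.0951 and an adjusted p of 0.489. isg15 was the 1 of 8 genes whose libraries of 9 dpa all lay above those of 0 dpa, against 20.2% of all genes. b2m was the 1 gene of 8 with all libraries of 9 dpa below those of 0 dpa, against 20.9% of all genes. It averaged 1405 ± 149 FPKM at 9 dpa and 2175 ± 862 FPKM at 0 dpa (SD, n = 2 each), a log2 fold change of -0.57 ± 0.34 (SE) with an adjusted p of 0.547 from limma. In this comparison 1 of 8 genes had a log2 fold change above 0 (3 with scaling without haemoglobin), against 47.4% of all genes. By the ratio of mean FPKM it was 2 of 8, with irf7 at 1.03. The median of the 8 was -0.25, against -0.03 for all genes. It was -1.25 without replicate 1 and 0.73 without replicate 2 of 0 dpa. Below 0 here were 17 of 24 macrophage and neutrophil markers (median -0.46) and 8 of 8 B and T cell markers (-0.71). So were 11 of 13 cardiomyocyte (-0.13), 11 of 13 endothelial (-0.36) and 2 of 7 epidermal markers (0.49). Their part in the result was not tested.

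Between 9 and 6 dpa, 8 of the 8 genes had a log2 fold change below 0, against 51.8% of all genes, though isg15 and mxa turned above 0 with some libraries left out. 0 of the 8 genes were called as higher, against 1.99% of the 9157 genes tested, and 0 as lower, against 1.42%, in the limma fit of all 6 libraries. None was under a P value of 0.05, and all adjusted p-values of the 8 genes were 1.00 after rounding. Of all genes, 0.0328% passed the adjusted p-value. In 5 of the 8 genes, b2m, cd74a, cd74b, irf1b and irf8, all libraries of 9 dpa lay below those of 6 dpa, against 18.1% of all genes. In 0 of 8 all lay above, against 18.4%. cd74a averaged 915 ± 184 FPKM at 9 dpa and 1574 ± 81.4 FPKM at 6 dpa (SD, n = 2 each), a log2 fold change of -0.80. cd74b averaged 337 ± 13.3 FPKM at 9 dpa and 591 ± 2.01 FPKM at 6 dpa, a log2 fold change of -0.81. irf8 averaged 25.3 ± 1.38 FPKM at 9 dpa and 45.3 ± 7.45 FPKM at 6 dpa, a log2 fold change of -0.81. irf1b averaged 29.0 ± 8.64 FPKM at 9 dpa and 47.9 ± 6.27 FPKM at 6 dpa, a log2 fold change of -0.73. The median log2 fold change of the 8 genes was -0.66, against -0.01 for all genes. Marker lists moved in the same comparison, the endothelial list least. Below 0 were 23 of 24 tested macrophage and neutrophil markers (median -0.71) and 6 of 7 B and T cell markers (-0.84). So were 11 of 13 epidermal markers (-1.86). Above 0 were 13 of 13 cardiomyocyte markers (0.44) and 9 of 14 endothelial markers (0.10). Their part in the result was not tested.

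The call on these 4 genes depended on whether the 0 dpa libraries entered the estimate of the spread. In the fit of all 6 libraries the standard errors were 0.63 for cd74a, 0.64 for cd74b, 0.97 for irf8 and 0.85 for irf1b. In the fit of the 9 and 6 dpa libraries alone they were 0.20, 0.19, 0.23 and 0.28 in the same order, and the 4 genes were called as lower at 9 dpa, against 3.12% of all genes in that direction. Their fold changes were 1.74, 1.75, 1.75 and 1.66 and their unadjusted P values 0.00667, 0.00452, 0.0104 and 0.0350 by limma. The adjusted p-values lay between 0.521 and 0.593, so none passed. Leaving out replicate 1 or replicate 2 of 0 dpa gives nearly the same fit, because a lone 0 dpa library adds nothing to the spread. Those fits are thus no further evidence for these 4 genes. Without replicate 2 of 6 dpa the log2 fold change of mxa was -1.17, and without replicate 2 of 9 dpa that of irf7 was -1.08.

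**Figure D2:**
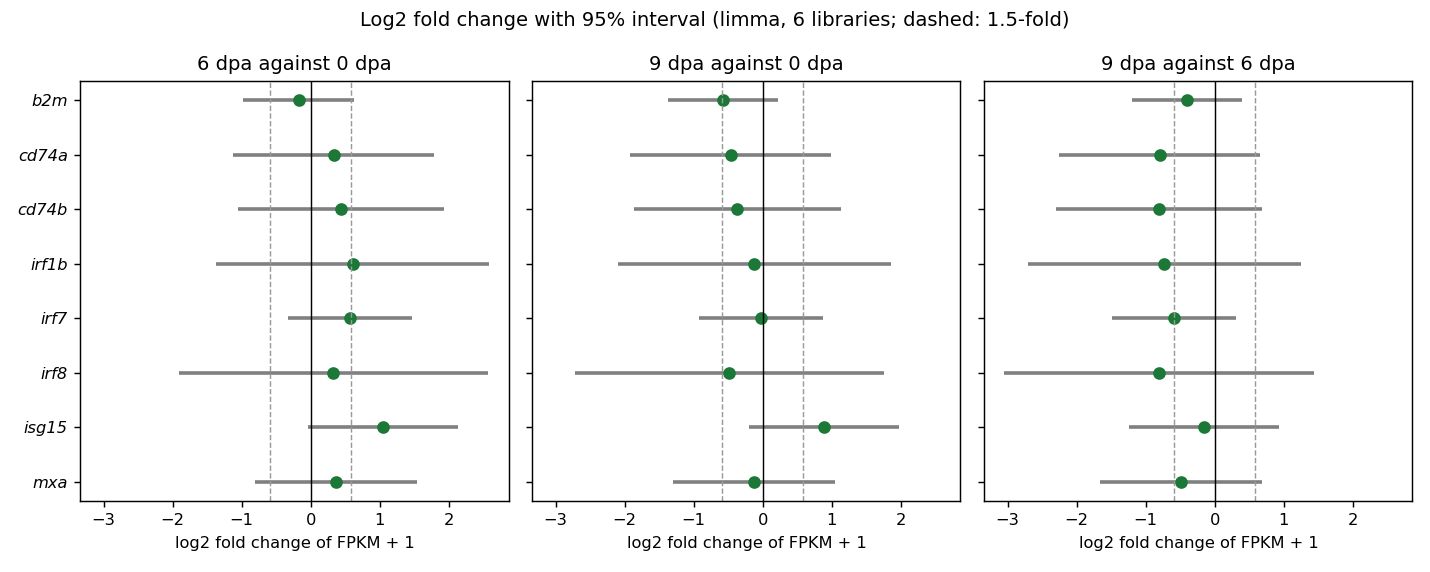
Log2 fold change of FPKM + 1 (x axis) of the 8 genes (rows) at 6 dpa against 0 dpa, 9 dpa against 0 dpa and 9 dpa against 6 dpa; points are the limma estimate from 6 libraries, bars the 95% interval and dashed lines a 1.5-fold change. Every interval includes 0; the widest is that of irf8 and the narrowest that of b2m.

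The spread between the 0 dpa replicates was itself the main pattern in these genes. Replicate 2 was higher than replicate 1 in 7 of the 8, with a median difference of 1.51 on the log2(FPKM + 1) scale, whereas 32.8% of all fitted genes were higher in replicate 2 and their median was -0.24. In 4 genes the difference was above 1: 3.64 for irf8, 3.12 for irf1b, 2.29 for cd74b and 2.18 for cd74a. For irf8, 32 of the 9363 fitted genes had a larger difference in this direction, and for irf1b 66. The other 4 genes were closer together, at 0.83 for b2m, 0.78 for mxa, 0.46 for irf7 and -0.33 for isg15. At the later times the median difference was closer to 0. At 6 dpa it was -0.22, with 3 of 8 genes higher in replicate 2. Of all fitted genes 36.1% were higher there, with a median of -0.13. At 9 dpa it was 0.16, with 7 of 8 genes higher in replicate 2, against 33.7% of all fitted genes and their median of -0.16. At 6 dpa the genes with a difference beyond 1 were isg15 and mxa, both higher in replicate 1.

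**Figure D3:**
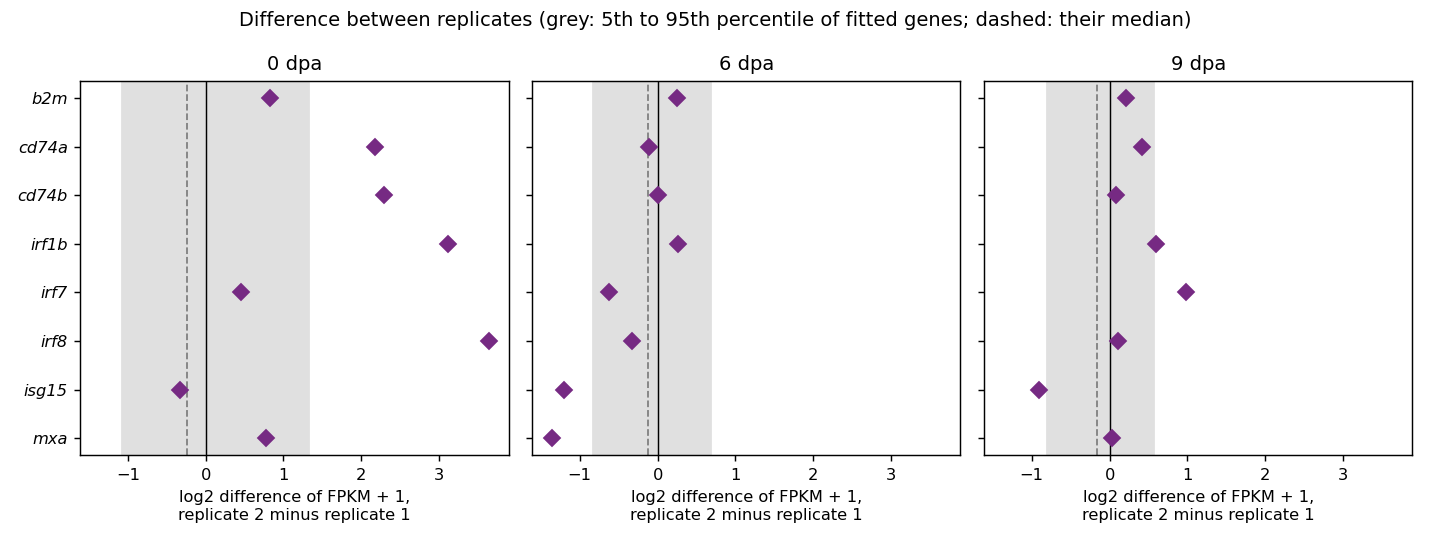
Difference between replicate 2 and replicate 1 in log2(FPKM + 1) (x axis) of the 8 genes (rows) at 0, 6 and 9 dpa; the grey band runs from the 5th to the 95th percentile of the 9363 fitted genes and the dashed line is their median. At 0 dpa irf8, irf1b, cd74b and cd74a lie to the right of the band, while b2m, irf7, isg15 and mxa lie within it.

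The sign of some of these genes against 0 dpa depended on which library of 0 dpa was left out. Without replicate 1, the 6 dpa libraries were compared with the higher library of 0 dpa alone, and 5 of 8 genes were called as lower at 6 dpa, against 7.81% of all genes: b2m at -0.59, cd74a at -0.76, cd74b at -0.70, irf1b at -0.95 and irf8 at -1.49. Without replicate 2, 4 of 8 genes were called as higher at 6 dpa, against 9.84% of all genes: cd74a at 1.42, cd74b at 1.58, irf1b at 2.17 and irf8 at 2.15. The limma adjusted p-values of cd74b, irf1b and irf8 were then 0.0356, 0.0400 and 0.0311. At 9 dpa, 5 of 8 genes were called as lower without replicate 1, against 9.29% of all genes. They were b2m at -0.99, cd74a at -1.55, cd74b at -1.51, irf1b at -1.68 and irf8 at -2.30. Adjusted p-values of 0.0414 for cd74a, 0.0369 for cd74b and 0.0336 for irf8 came from the same limma fit. Without replicate 2, 4 of the 7 genes tested were called as higher at 9 dpa, against 7.07% of all genes: cd74a at 0.63, cd74b at 0.78, irf1b at 1.44 and irf8 at 1.34. These are log2 fold changes from limma fits in which the lone 0 dpa library is assumed to vary like the other time points. That did not hold over all fitted genes. Between the 0 dpa replicates 13.9% of them differed by more than 1 log2, against 5.66% at 6 dpa and 3.81% at 9 dpa. The calls and adjusted p-values of these fits leave out the spread between the 0 dpa libraries, so they do not establish a change. For cd74a, cd74b, irf1b and irf8 the sign against 0 dpa thus depended on which 0 dpa library was used. b2m was above 0 at 6 dpa without replicate 2 of 0 dpa (0.24), but at 9 dpa it was below 0 without either library, at -0.99 and -0.16. isg15 had a log2 fold change above 0 in both comparisons with 0 dpa whichever library was left out, but its size depended on the later libraries. It was 0.44 without replicate 1 and 1.65 without replicate 2 of 6 dpa, and at 9 dpa 0.44 without replicate 1 and 1.34 without replicate 2 of 9 dpa.

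**Figure D4:**
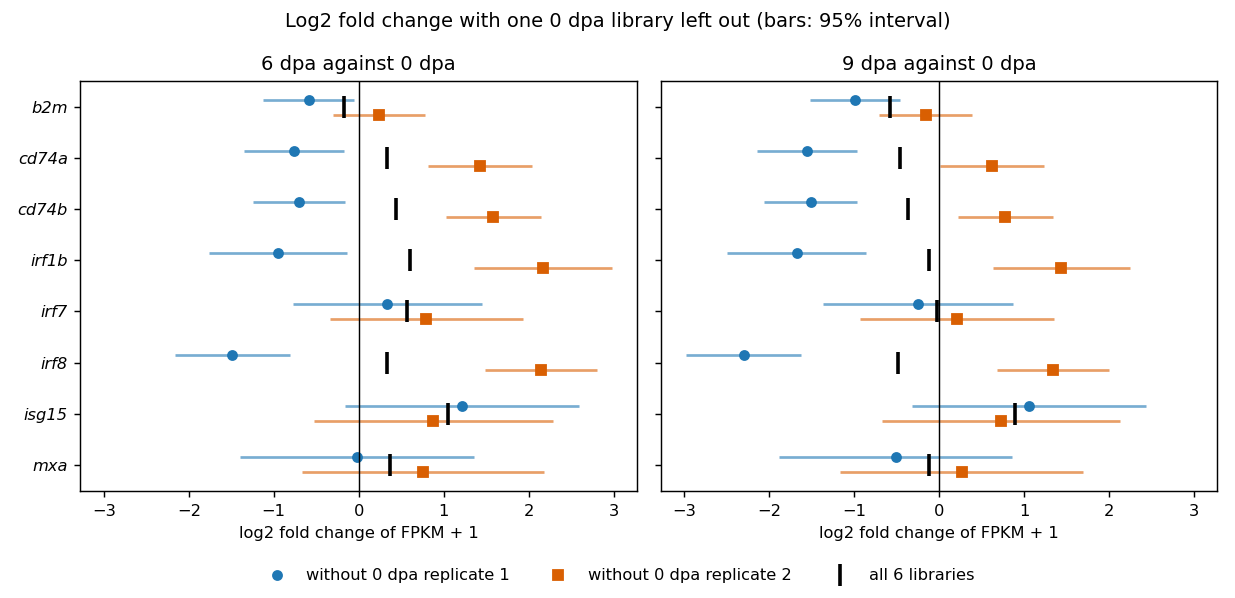
Log2 fold change of FPKM + 1 (x axis) of the 8 genes (rows) at 6 and 9 dpa against 0 dpa without replicate 1 of 0 dpa (circles), without replicate 2 of 0 dpa (squares) and with all 6 libraries (ticks); bars are 95% intervals. cd74a, cd74b, irf1b and irf8 lie below 0 without replicate 1 and above 0 without replicate 2, and isg15 lies above 0 in both.

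The summed leukocyte markers had their lowest and highest values in the 2 libraries of 0 dpa, as irf8, irf1b, cd74a and cd74b did. isg15 ran the other way there, with 38.6 FPKM in replicate 1 and 30.5 FPKM in replicate 2. The 29 macrophage and neutrophil markers in the table summed to 584 and 3340 FPKM at 0 dpa, 1481 to 2019 FPKM at 6 dpa and 969 to 1114 FPKM at 9 dpa. All 25 of those that entered the fit were higher in replicate 2 of 0 dpa, with a median difference of 2.41 log2, and 0 of the 29 were at 0 throughout. mpeg1.1, a defining gene of zebrafish macrophages, had 13.9 and 171 FPKM at 0 dpa, 88.8 and 76.7 FPKM at 6 dpa, and 45.4 and 41.3 FPKM at 9 dpa. csf1ra, the receptor of a macrophage growth factor, had 3.72 and 58.0 FPKM in the 2 libraries of 0 dpa. The 2 neutrophil genes picked out here were closer there, lyz with 87.4 and 105 FPKM and mpx with 1.92 and 2.03 FPKM. mpx was under the minimum of 3 FPKM in both. Of the 25 fitted markers of the list, 21 differed by more than 1 log2 between these libraries. Whether neutrophils differed was not tested. At 6 dpa lyz had 9.27 and 134 FPKM, a 14.4-fold difference, against the direction of its list. There 21 of the 25 fitted macrophage and neutrophil markers were lower in replicate 2, with a median of -0.50 log2. Of all 9363 fitted genes 5977 were lower there, with a median of -0.13 log2. mpx had 4.61 and 4.21 FPKM at 6 dpa. The 19 B and T cell markers summed to 26.9 and 114 FPKM at 0 dpa, 59.6 to 71.7 FPKM at 6 dpa and 29.2 to 33.0 FPKM at 9 dpa, with 7 of 9 fitted ones higher in replicate 2 of 0 dpa. The B cell receptor gene cd79a was listed at 0 in replicate 1 of 0 dpa and at 2.24 FPKM in replicate 2. It was thus under the minimum of 3 FPKM in both. The T cell kinase gene lck had 0.306 and 9.79 FPKM in the 2 libraries. The 13 fitted cardiomyocyte markers ran the other way, with 2 higher in replicate 2 of 0 dpa and a median of -0.81 log2. The part of these cells in the results was not tested. In bulk tissue, fewer cells of a type and less RNA per cell cannot be told apart.

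Ratios within a library differed in how steady they were. irf8 was between 0.523 and 0.751 times mpeg1.1 in the 6 libraries, a 1.44-fold range for a gene whose own level ranged over 13.7-fold. Against spi1b, a myeloid transcription factor, irf8 had a 2.39-fold range, and cd74a a 2.71-fold range against mpeg1.1. Per 100 FPKM of the summed macrophage and neutrophil list, cd74b had between 28.8 and 40.0 FPKM and cd74a between 70.5 and 108 FPKM, ranges of 1.39-fold and 1.53-fold. irf1b and irf8 ranged over 2.15-fold and 2.39-fold on this scale. mxa, b2m, irf7 and isg15 had wider ranges, of 2.83-fold, 3.22-fold, 4.15-fold and 8.72-fold. For isg15, b2m and irf7 this range was wider than that of their own FPKM, which was 3.60-fold, 2.14-fold and 2.94-fold.

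**Figure D5:**
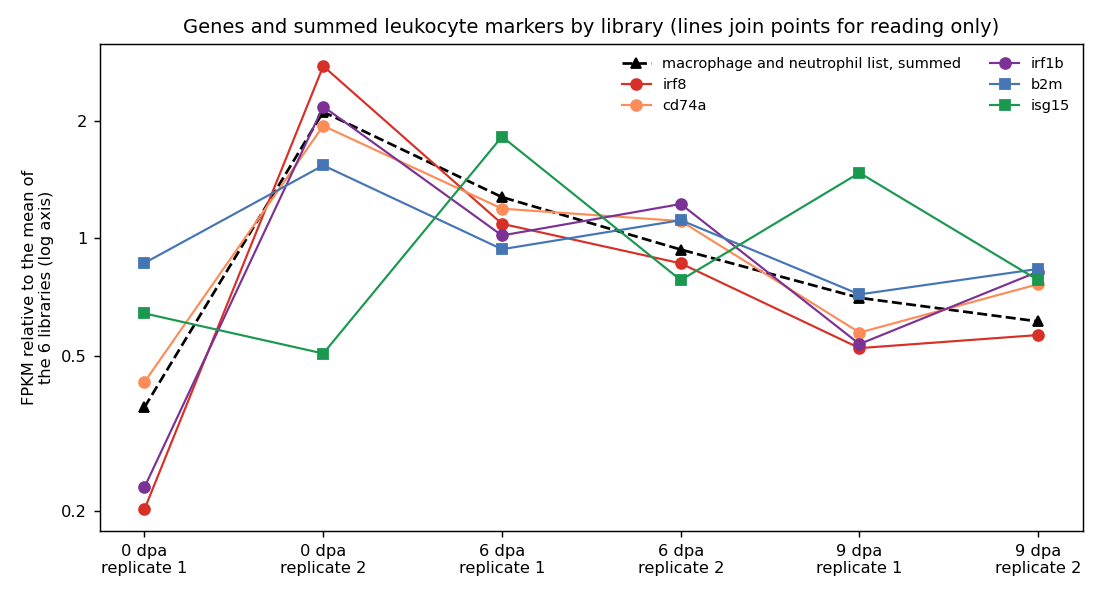
FPKM of 5 of the genes and the summed FPKM of 29 macrophage and neutrophil markers (dashed line, triangles) in each library, each divided by its mean over the 6 libraries (y axis, log scale). irf8, irf1b and cd74a are lowest in replicate 1 and highest in replicate 2 of 0 dpa like the marker sum, whereas isg15 is highest in replicate 1 of 6 dpa.

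The genes nearest in pattern were found by the root mean square difference of log2(FPKM + 1) centred over the 6 libraries, for the most abundant member of each role. For irf8 the nearest of the 9363 fitted genes were il21r.1 at 0.143, lygl1 at 0.154 and sftpbb at 0.156 log2. Among the members, irf1b came next to irf8 as the 31st gene, at 0.310 log2, followed by cd74b as the 65th and cd74a as the 78th. For b2m the nearest were sdc4 at 0.094, trim35-20 at 0.108 and zgc:92791 at 0.111 log2, and 202 genes lay within 0.25. For isg15 the nearest were nucks1a at 0.099, gins4 at 0.128 and slc25a32a at 0.148 log2, and mxa was only the 2996th. These are descriptions over 6 libraries, and no test was made of them.

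The wider pathway was followed in 5 lists of 166 genes, of which 116 were in the table. At 6 dpa against 0 dpa, 8 of the 86 tested genes were called as higher and 3 as lower, 9.30% and 3.49%, against the 7.86% and 7.51% of all genes given above. Their median log2 fold change was 0.31. For 9 dpa against 0 dpa, 8 of 80 tested genes were called as higher and 2 as lower, 10.0% and 2.5%, against 6.82% and 5.72% of all genes, with a median of -0.07. For 9 dpa against 6 dpa, 0 of 84 were called as higher and 3 as lower (3.57%), against 1.99% and 1.42% of all genes, with a median of -0.20. No gene of these lists passed the adjusted p-value in any comparison by limma. The counts moved with the library left out, and so did the share of all genes called in either direction. With all 6 libraries this share was 15.4% at 6 dpa and 12.5% at 9 dpa. The lists then had 11 of 86 tested genes called at 6 dpa and 10 of 80 at 9 dpa. Without replicate 1 of 0 dpa 25 genes were called at 6 dpa and 34 at 9 dpa, against 18.2% and 20.6% of all genes. Without replicate 2 of 0 dpa they were 35 and 26, against 24.7% and 17.12%. Without replicate 1 of 6 dpa the count at 6 dpa against 0 dpa was 6, against 10.6%. Without replicate 1 or 2 of 9 dpa, 5 or 6 genes were called at 9 dpa against 0 dpa, against 8.06% or 6.46%. The 3 genes called at 9 dpa against 6 dpa became 12 or 13 without replicate 1 or 2 of 0 dpa, where the share of all genes was 6.88% or 6.79% instead of 3.41%, and 1 without replicate 1 of 6 dpa or either library of 9 dpa.

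Among ligands, kinases and STATs, 1 of 17 tested genes was called as higher and 2 as lower, both at 6 and at 9 dpa against 0 dpa. These were 5.88% and 11.76%, against 7.86% and 7.51% of all genes at 6 dpa and 6.82% and 5.72% at 9 dpa. jak2a, a kinase of the interferon-gamma receptor, had 44.7 ± 20.4 FPKM at 0 dpa, 93.6 ± 17.2 FPKM at 6 dpa and 89.1 ± 10.2 FPKM at 9 dpa (SD, n = 2 each). Its log2 fold changes were 1.11 and 1.05, and both calls were lost without replicate 2 of 0 dpa, where the values were 0.64 and 0.58. They were lost as well without replicate 2 of 6 dpa (0.93, at 6 dpa) and without replicate 1 or 2 of 9 dpa (1.17 or 0.93, at 9 dpa). ifng1, which encodes interferon-gamma, was detected mainly at 0 dpa. It had 2.19 and 14.1 FPKM at 0 dpa, 0.533 and 0 FPKM at 6 dpa, and 0 and 0.474 FPKM at 9 dpa. Both its log2 fold changes, -2.49 and -2.52, were called by the study's criteria, but its mean of 0 dpa rested on replicate 2, and without that library it fell under the minimum of 3 FPKM and was not tested. Without replicate 1 of 9 dpa the log2 fold change at 9 dpa was -2.24 and no longer called. stat4, a STAT of lymphocytes and natural killer cells in mammals, had 34.2 ± 4.81 FPKM at 0 dpa, 21.1 ± 0.65 FPKM at 6 dpa and 22.2 ± 1.96 FPKM at 9 dpa (SD, n = 2 each). It was called as lower in both comparisons with P values of 0.0306 and 0.0464 by limma, and neither call held without replicate 1 of 0 dpa, where the log2 fold changes were -0.53 and -0.46. Leaving out any other library, except replicate 2 of 0 dpa, ended both calls as well, at log2 fold changes between -0.70 and -0.51. stat2, a STAT of type I interferon signalling, had 38.8 and 24.1 FPKM at 0 dpa, 61.0 and 26.7 FPKM at 6 dpa, and 40.2 and 22.5 FPKM at 9 dpa, and was not called. socs1a, an inhibitor of JAK kinases, was not called either, with 6.20 and 31.4 FPKM in the 2 libraries of 0 dpa, and socs3a was under 3 FPKM in every library.

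Of the 7 other IRF genes tested at 6 dpa against 0 dpa, irf5 alone was called, as higher, against 7.86% of all genes. irf5, a factor of macrophages and B cells in mammals, had 2.41 and 4.23 FPKM at 0 dpa, 7.59 and 6.07 FPKM at 6 dpa, and 3.26 and 2.89 FPKM at 9 dpa. The log2 fold changes were 0.88 for 6 against 0 dpa and -0.94 for 9 against 6 dpa. The first call was lost without replicate 1 of 0 dpa (0.58) or either library of 6 dpa (0.74 and 1.03), and the second without replicate 1 of 6 dpa (-0.80) or either library of 9 dpa (-1.004 and -0.87). irf2 was called as higher at 9 dpa, with 35.2 ± 1.35 FPKM at 9 dpa and 18.5 ± 5.89 FPKM at 0 dpa (SD, n = 2 each), a log2 fold change of 0.93 that was not called without replicate 1 of 9 dpa (0.89). irf9, the DNA-binding part of a STAT complex that acts on interferon-stimulated genes, was not called, with a log2 fold change of 0.75 at 6 dpa against 0 dpa and an adjusted p of 0.425 from limma.

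Among interferon-stimulated genes and sensors of foreign nucleic acid, 2 of 24 tested genes were called as higher and 1 as lower at 6 dpa, and 2 of 18 as higher and 0 as lower at 9 dpa, each against 0 dpa. At 6 dpa these were 8.33% and 4.17%, against 7.86% and 7.51% of all genes, and at 9 dpa 11.1% were higher, against 6.82%. rsad2, which encodes the antiviral enzyme viperin, had 4.82 and 2.44 FPKM at 0 dpa, 18.1 and 6.90 FPKM at 6 dpa, and 14.89 and 14.98 FPKM at 9 dpa. As with isg15, every later library was above both libraries of 0 dpa. Its log2 fold changes were 1.46 ± 0.44 and 1.83 ± 0.44 (SE), with limma P values of 0.0111 and 0.00337 and adjusted p-values of 0.175 and 0.169. The call at 6 dpa was lost without replicate 1 of 6 dpa (0.82) or replicate 2 of 0 dpa (1.08), and the call at 9 dpa held whichever library was left out. The sensor genes dhx58 and ddx58 were called at 1 time each, with log2 fold changes of 1.16 for dhx58 (6 dpa) and 1.40 for ddx58 (9 dpa). The dhx58 call was lost without replicate 1 of 0 dpa (0.58) or replicate 1 of 6 dpa (0.75). The ddx58 call was lost without either library of 0 dpa (1.57 and 1.23), it was not tested without replicate 2 of 9 dpa, and its libraries of 9 dpa had 1.61 and 6.29 FPKM. mavs, the adaptor through which the ddx58 sensor signals, was called as lower at 6 dpa, with a log2 fold change of -0.69. The mavs call was lost without replicate 1 of 0 dpa (-0.53) or either library of 6 dpa (-0.68 and -0.69).

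In the MHC class I pathway, 3 of 22 genes were called as higher at 6 dpa and the same 3 at 9 dpa, each against 0 dpa, and 0 as lower. This is 13.6% of the list, against 7.86% and 6.82% of all genes as higher. They are the calreticulin genes, whose products are general chaperones of the endoplasmic reticulum that also fold MHC class I. calr3a had 54.6 ± 4.06 FPKM at 0 dpa, 103 ± 10.9 FPKM at 6 dpa and 93.9 ± 5.91 FPKM at 9 dpa (SD, n = 2 each). calr3b had 13.9 ± 0.60 FPKM at 0 dpa, 37.0 ± 15.5 FPKM at 6 dpa and 31.4 ± 2.34 FPKM at 9 dpa. calr had log2 fold changes of 1.12 and 1.05. Of these 6 calls, calr was lost at 6 dpa without replicate 1 of 6 dpa (0.87), calr3a at 9 dpa without either library of 9 dpa (0.71 and 0.84) and calr3b at 9 dpa without replicate 1 of 9 dpa (1.04). The genes more particular to antigen presentation were not called. mhc1uba, a classical class I heavy chain and thus a partner of b2m, had 47.8 and 1062 FPKM at 0 dpa, 605 and 173 FPKM at 6 dpa, and 109 and 108 FPKM at 9 dpa. psmb8a, a subunit of the immunoproteasome, had 28.5 and 181 FPKM at 0 dpa, 118 and 75.9 FPKM at 6 dpa, and 57.0 and 62.4 FPKM at 9 dpa. psmb9a, another subunit, had 9.28 and 76.7 FPKM at 0 dpa, 46.3 and 35.9 FPKM at 6 dpa, and 19.8 and 18.0 FPKM at 9 dpa. All 3 had their extremes in the 2 libraries of 0 dpa, as irf8 and cd74a did, and 17 of the 22 genes of this list were higher in replicate 2 of 0 dpa, with a median difference of 1.16 log2.

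In the MHC class II pathway, creb1b was the 1 of 16 tested genes called as higher, both at 6 dpa with a log2 fold change of 0.96 and at 9 dpa with 1.05, against 0 dpa. This is 6.25% of the list, against 7.86% and 6.82% of all genes. It encodes a CREB factor of broad use that is also part of the complex on class II promoters. Its calls held whichever library was left out. Between 9 and 6 dpa, 2 of 16 genes were called as lower at 9 dpa, 12.5% of the list against 1.42% of all genes. lgmn, which encodes the endosomal protease legumain, had 130 ± 31.6 FPKM at 9 dpa and 228 ± 44.9 FPKM at 6 dpa (SD, n = 2 each), a log2 fold change of -0.82. rfxank, a subunit of the RFX complex on class II promoters, had 5.35 ± 0.14 FPKM at 9 dpa and 9.68 ± 1.89 FPKM at 6 dpa, a log2 fold change of -0.74. The lgmn call was lost without any of the 4 libraries compared, at log2 fold changes between -1.06 and -0.57, and the rfxank call without replicate 2 of 6 dpa (-0.56) or either library of 9 dpa (-0.76 and -0.72).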

How the data were processed

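The authors aligned the RNA-seq reads to the zebrafish genome danRer10 with STAR and converted them to FPKM with Cufflinks. Tool versions and the gene annotation are not given in the sources used here. The deposited table holds 1 FPKM value per gene and library, listed by symbol, and was used as given for 6 libraries. The 6 ChIP-seq samples and the 6 samples of the PAC2 cell line were not analysed here. FPKM carries no counts, so the study's count test was replaced by limma 3.58.1 in R 4.3.3, with a trend in the prior. The model had a term for time point and no other, and was fitted to log2(FPKM + 1). Because of the added 1, the fold changes of low genes are understated. Genes entered the fit with a mean of 3 FPKM or more at any time point (9363 genes), and p-values were Benjamini-Hochberg adjusted over all genes tested in a comparison. The procedure was tested on simulated data. Tables and figures were made with Python 3.11.15, pandas 2.3.3 and matplotlib 3.10.9.

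The genes and the gene lists were chosen with earlier results of these data known. Of the 10 genes under the rule, 2 are not reported here and are in no count over the members. Beside the 8 genes, the text names the genes of each list that passed the 3 criteria (at most 4 in each direction per comparison), some fixed genes whatever their values (stat2, irf9, mhc1uba, psmb8a, psmb9a, rsad2, socs1a, socs3a, mpeg1.1; the fixed names tap1, mhc2dab and ptprc were not matched and not analysed here) and the 3 genes nearest in pattern to the most abundant member of each role. All other marker genes were chosen after their values were seen. All 8 symbols matched a RefSeq gene of the assembly GRCz12tu, which was used for names and neighbours only. No coordinates or sequences are given. Alternatives were a pseudocount of 0.1, other FPKM filters, median-ratio scaling, scaling to equal sums without haemoglobin, fits of the compared groups only, a replicate block, no trend and leaving out each library.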

Additional observations from a re-analysis of the deposited data

How the results depend on the processing

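Of 336 values of the 8 genes under an alternative, 285 kept their direction and their side of the threshold, 30 became called in the same direction and 21 turned round. The direction could not change under the FPKM filters, the fits of the compared groups only, the replicate block or no trend. Nor could it change where the library left out was outside the comparison. These values kept their direction by design. The number of the 8 genes called at 6 dpa against 0 dpa was 0. It became 1 with median-ratio scaling, against 17.6% of all genes called in either direction. It was also 1 with equal sums without haemoglobin (21.9% of all genes) and with the replicate block (16.5%). For 9 dpa against 0 dpa it was 0, and became 1 without haemoglobin (15.2% of all genes) and 1 with the replicate block (13.5%). For 9 dpa against 6 dpa it was 0, and became 4 with the compared groups only, against 6.69% of all genes. In all 3 comparisons the number also moved with a library left out. The gene called under scaling or block was isg15, at 6 dpa with log2 fold changes of 1.01 (median-ratio), 1.37 (without haemoglobin) and 1.05 (replicate block), and at 9 dpa with 1.06 (without haemoglobin) and 0.89 (replicate block). It was also called at 6 dpa without replicate 2 of 6 dpa. None of these passed the adjusted p-value, which for isg15 at 6 dpa ranged between 0.145 and 0.809 over all alternatives. Whether the replicate numbers pair the libraries was not settled. Deviations of same-numbered libraries from their group means correlated at -0.08, 0.09 and 0.005 over 9363 genes. Such values over all genes cannot exclude a pairing that acts on some of them.

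Scaling without haemoglobin shifted all genes, to a median of 0.31 at 6 dpa and 0.13 at 9 dpa against 0 dpa, and of -0.17 for 9 against 6 dpa. Under it the value of b2m at 6 dpa against 0 dpa was 0.16, that of irf1b at 9 dpa against 0 dpa 0.029 and that of irf7 there 0.13, all with the sign turned. In the wider lists, 19 genes instead of 11 were called at 6 dpa against 0 dpa without haemoglobin. The share of all genes called was then 21.9% instead of 15.4%. With the compared groups only, 13 list genes instead of 3 were called at 9 dpa against 6 dpa. The share of all genes was then 6.69% instead of 3.41%. Calls of single genes named from those lists were lost for mavs at 6 dpa and stat4 at both times without haemoglobin, and for rsad2 and dhx58 at 6 dpa, ddx58 and jak2a at 9 dpa and lgmn without an FPKM filter. They were also lost for dhx58 and ddx58 with median-ratio scaling, for dhx58, ddx58 and lgmn with the replicate block, for ddx58 and for stat4 at both times with the compared groups only, and for stat4 at 9 dpa with no trend. With a library left out the counts in the wider lists were 6 to 35 at 6 dpa against 0 dpa, 5 to 34 at 9 dpa against 0 dpa and 1 to 13 at 9 dpa against 6 dpa.

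With a library left out, the median of the 8 genes ran between -0.65 and 1.15 at 6 dpa and between -1.25 and 0.73 at 9 dpa, against 0 dpa. The log2 fold changes that turned round at 6 dpa against 0 dpa ran from -0.59 to 0.24 for b2m, -0.95 to 2.17 for irf1b, -1.49 to 2.15 for irf8, -0.31 to 1.04 for mxa, -0.76 to 1.42 for cd74a and -0.70 to 1.58 for cd74b. For 9 dpa against 0 dpa they ran from -1.68 to 1.44 for irf1b, -0.51 to 0.47 for irf7, -2.30 to 1.34 for irf8, -0.51 to 0.26 for mxa, -1.55 to 0.63 for cd74a and -1.51 to 0.78 for cd74b. For 9 dpa against 6 dpa they ran from -0.76 to 0.45 for isg15 and -1.17 to 0.19 for mxa. A group left with 1 library is assumed to vary like the others, which did not hold for 0 dpa over all fitted genes. The cause of the difference between the 0 dpa libraries was not tested. With 2 libraries a group and no read counts, a missed call does not show that a gene was unchanged.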
